A study of Homo sapiens with 9 samples.

Results

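The genes described here are 49 genes of the lysosome, its proton pump and the autophagy machinery that are commonly listed as the transcriptional program of TFEB. They were listed by name and role, with earlier results of these data known, out of 60234 gene identifiers in the count table. All 49 were found, and 48 of them had enough reads to be among the 15847 genes tested. They were measured in Ramos cells, an established EBV-negative Burkitt lymphoma B cell line, by RNA sequencing. The 3 groups, of 3 libraries each, were untreated cells (0 h) and cells given 3 µM of the GSK-3 kinase inhibitor CHIR99021 for either 3 h or 6 h. All 9 libraries came from this 1 line, and the labels give no genetic change. The labels name no vehicle for the untreated cells, and no untreated cells were sequenced from the later times, so that treatment and time in the treated culture cannot be told apart. The libraries are labelled biological replicates, but nothing says what separated them, so p-values measure only the spread between these samples.

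TFEB, TFE3 and MITF are related transcription factors that bind a short palindromic DNA element near the start sites of many lysosomal and autophagy genes. Active mTORC1 on the lysosome surface phosphorylates TFEB and keeps it in the cytoplasm bound to 14-3-3 proteins, GSK-3 is among the other kinases known to phosphorylate it, and folliculin and RagD act in the mTORC1 branch. In B cells, lysosomes also hold the proteases that process antigen, and autophagy supplies them with cytoplasmic cargo.

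The element searched was CACGTG, with its longer form TCACGTGA, in windows from 250 bases before to 50 bases after the start site in RefSeq (GRCh38.p14). Both read the same on either strand, and the shorter lies within the longer, so the counts overlap. A window was held for 35 of the 49 genes, with 45 windows in all. A gene was counted when any of its windows held the letters. The shares of all windows count windows, so only the shares of tested genes are of the same kind. CACGTG was found in 10 of the 35 (28.6%), namely ATG14, ATP6V0B, ATP6V0D1, CTSA, CTSD, FNIP1, GAA, LAMP1, MCOLN1 and NEU1. Of all 35116 windows of that length 7.26% held it, as did 12.6% of the 10233 tested genes with a window. TCACGTGA was found in 5 (14.3%), against 0.98% of all windows and 2.36% of tested genes. The same form with a G before it and a C after it was also searched. It was found in 2 of these 5, GAA and MCOLN1 (5.71% of the 35, against 0.353% of all windows and 0.958% of tested genes). TCATGTGA, a variant searched on both strands, was found in ATP6V0C and FNIP2 (5.71%, against 1.0% and 1.19%). A match is a description of these letters and not a measured binding site. It does not tell which factor, of this family or another, would bind. The 250 bases before the start site of the 5 genes with TCACGTGA are shown because their transcripts, given below by role, did not move in 1 direction, with every CACGTG in capitals. They lie at chr13:113296989-113297238, plus strand for LAMP1, chr20:45891085-45891334, plus strand for CTSA, chr16:67481158-67481407, minus strand for ATP6V0D1, chr17:80101331-80101580, plus strand for GAA and chr19:7522374-7522623, plus strand for MCOLN1, and each is written 5′ to 3′ on the strand of its gene.
LAMP1: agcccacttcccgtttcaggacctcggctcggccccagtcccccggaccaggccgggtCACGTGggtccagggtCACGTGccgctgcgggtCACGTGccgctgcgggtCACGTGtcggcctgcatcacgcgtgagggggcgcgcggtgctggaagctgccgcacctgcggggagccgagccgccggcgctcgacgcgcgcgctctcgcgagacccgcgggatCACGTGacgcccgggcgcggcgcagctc
CTSA: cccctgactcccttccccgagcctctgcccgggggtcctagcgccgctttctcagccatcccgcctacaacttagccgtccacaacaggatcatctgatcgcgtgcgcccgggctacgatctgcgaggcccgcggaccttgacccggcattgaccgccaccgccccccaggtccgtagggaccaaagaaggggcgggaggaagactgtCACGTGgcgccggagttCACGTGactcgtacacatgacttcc
ATP6V0D1: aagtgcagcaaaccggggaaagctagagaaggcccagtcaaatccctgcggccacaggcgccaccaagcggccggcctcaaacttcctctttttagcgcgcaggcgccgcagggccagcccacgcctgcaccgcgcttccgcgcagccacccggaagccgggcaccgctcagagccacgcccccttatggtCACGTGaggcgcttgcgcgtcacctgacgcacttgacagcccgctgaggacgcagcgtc
GAA: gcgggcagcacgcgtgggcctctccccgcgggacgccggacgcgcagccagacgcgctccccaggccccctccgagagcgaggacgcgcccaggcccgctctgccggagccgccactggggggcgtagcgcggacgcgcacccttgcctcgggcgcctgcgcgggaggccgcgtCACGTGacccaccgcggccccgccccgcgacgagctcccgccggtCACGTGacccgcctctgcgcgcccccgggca
MCOLN1: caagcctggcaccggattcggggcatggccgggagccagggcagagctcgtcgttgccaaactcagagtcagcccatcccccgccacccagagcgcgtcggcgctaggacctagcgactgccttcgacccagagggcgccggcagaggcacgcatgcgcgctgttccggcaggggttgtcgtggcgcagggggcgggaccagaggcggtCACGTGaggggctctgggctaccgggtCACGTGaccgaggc
LAMP1 held 5 complete copies in the bases printed, and a further copy began 1 base before its start site. GAA held TCACGTGA at 77 and 32 bases before its start site, and MCOLN1 at 42 and 15 bases before.

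Reads in genes numbered from 46359911 to 52880876 in the 9 libraries, at which 3 reads, the most that a count of 0 allows, are 0.0567 to 0.0647 CPM. CPM are read counts divided by an effective library size, the total times a TMM factor that ranged from 0.922 to 1.12. The factors split by group, at 1.10 to 1.12 in the untreated libraries and 0.922 to 0.966 in the treated ones. The B cell markers summed to between 2603 and 2855 CPM in every library, with 7 of 7 tested. Of 9 T and NK cell markers 1 was tested, with a sum of 0.372 to 1.09 CPM and CD3D, CD2 and CD8A at 0. No myeloid marker of 9 (sum 0.0516 to 0.208 CPM; FCGR3A, S100A8, S100A9 and CD163 at 0) and no epithelial or fibroblast marker of 9 (sum 0 to 0.0358 CPM; 6 at 0, EPCAM among them) had enough reads to be tested. Replicate 3 of the untreated cells stood apart from replicates 1 and 2, with a chi-square per degree of freedom of 32.5 and 29.1 over gene counts, against 1.74 between those 2 and 2.65 to 13.3 within the treated groups. These are bulk libraries, in which fewer cells of a type and less RNA per cell cannot be told apart.

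At 3 h, 19 of the 48 tested genes rose, 15 fell and 14 did not pass the test (edgeR quasi-likelihood, Benjamini-Hochberg adjusted p under 0.05 over all genes tested). The 34 that passed are 70.8% of the 48, beside 66.3% of all tested genes (32.8% higher and 33.5% lower), so the share that passed was near the background. At least 1.5-fold changes were found in 5 genes upward (background 14.5%) and 8 downward (background 19.5%), together 27.1% of the 48 beside 34.1% of all genes. At 6 h, 20 rose, 19 fell and 9 did not pass, which is 81.2% beside a background of 70.8% (35.7% higher and 35% lower). Changes of at least 1.5-fold were then found in 10 genes upward (background 17.2%) and 12 downward (background 22.2%), which is 45.8% of the 48 beside 39.4%. The median log2 fold change of the 48 was 0.05 at 3 h and -0.07 at 6 h, beside -0.01 and 0.02 for all tested genes. On the log2 scale a value of 1 is a doubling. The genes moved in both directions and ranged from -1.67 to 1.13 at 3 h and from -1.70 to 1.08 at 6 h. Both comparisons share the same 0 h libraries.

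**Figure D1:**
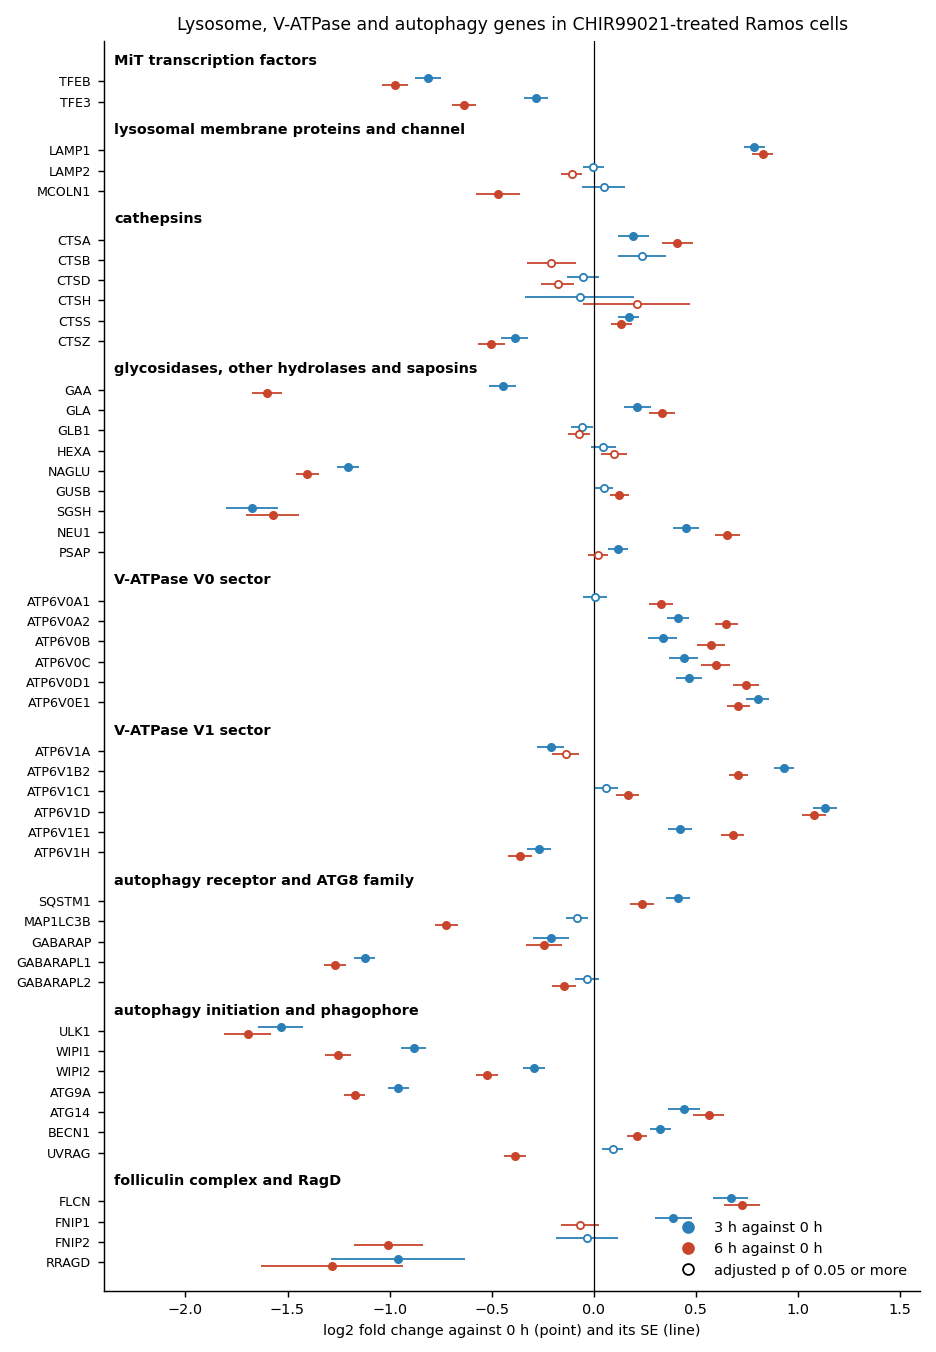
Log2 fold change against 0 h (x axis) of the 48 tested genes, grouped by role, at 3 h (blue) and 6 h (red). Points are edgeR estimates, lines their SE, and open points did not pass an adjusted p of 0.05. Subunits of the V0 sector lie at or right of 0, and ULK1, WIPI1, WIPI2 and ATG9A lie left of it.

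The directions depend in part on the scaling. With upper-quartile factors the median of all tested genes moved to -0.17 at 3 h and -0.13 at 6 h, and with library size alone to -0.22 at both times. The share of all called genes that were higher was 49.5% at 3 h and 50.5% at 6 h with TMM, 36% and 39.2% with upper-quartile factors, and 31.8% and 32.8% with library size alone. Of the 48 genes, 15 rose and 21 fell at 3 h with upper-quartile factors and 13 rose and 24 fell with library size alone. At 6 h those counts were 15 and 25, and 12 and 27. DESeq2 size factors gave 18 and 15 at 3 h and 20 and 19 at 6 h. Directions below are those with TMM factors. Their all-gene median lay within 0.02 of 0, but TMM centres the fold changes by construction, so this cannot show which scaling is right. Calls against 0 h that another scaling ended, gained or turned are given with each group.

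**Figure D2:**
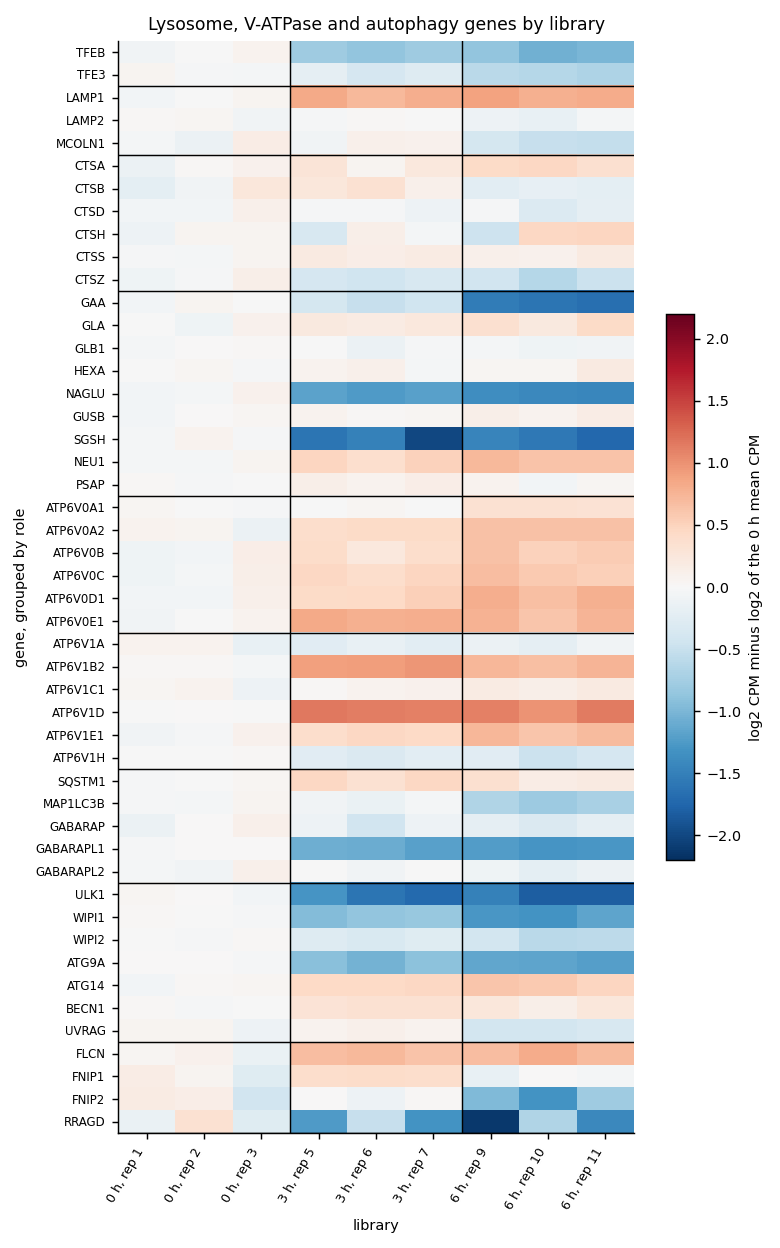
Log2 CPM of each tested gene (rows, grouped by role and split by horizontal lines) in each of the 9 libraries (columns), minus the log2 of its mean CPM at 0 h. Red is above and blue below the 0 h mean. Replicates of a time share their colours for ULK1, SGSH, NAGLU, GABARAPL1 and ATP6V1D, while LAMP2, GLB1 and HEXA stay pale in all 9 libraries.

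Transcripts of both detected transcription factors of the family fell. TFEB (ENSG00000112561) stood at 42.1, 43.7 and 46.6 CPM at 0 h, 25.6, 24.1 and 25.7 CPM at 3 h, and 24.3, 21.1 and 22.1 CPM at 6 h. Every treated library lay below every untreated one, and the 3 h and 6 h libraries overlapped. TFEB fell by 0.81 (SE 0.063, edgeR adjusted p = 5.63e-08) on the log2 scale at 3 h and by 0.97 (SE 0.064, edgeR adjusted p = 7.82e-09) at 6 h, which is 1.76-fold and 1.96-fold. Between the treated times TFEB did not pass (-0.16, edgeR adjusted p = 0.0627). It was called lower there with library size alone (-0.19, 0.0212) and in a fit of only the groups compared (-0.17, 0.0198). The same held without 0 h replicate 3 (-0.16, 0.0234) and without 6 h replicate 9 (-0.21, 0.0233). TFE3 (ENSG00000068323), a close relative of TFEB, stood at 37.5, 35.3 and 34.8 CPM at 0 h, 31.3, 27.8 and 29.5 CPM at 3 h, and 23.8, 23.2 and 22.3 CPM at 6 h. Its libraries stepped down at each time without overlap. TFE3 fell by 0.28 (SE 0.058, edgeR adjusted p = 0.000667) at 3 h, by 0.63 (SE 0.059, edgeR adjusted p = 3.09e-07) at 6 h, and by 0.35 (SE 0.06, edgeR adjusted p = 0.000339) between 3 h and 6 h. MITF (ENSG00000187098), the melanocyte relative, had 0 reads in all 9 libraries, which allows at most 0.0647 CPM. Both factors fell under every scaling tried, and their summed level was 80.0 ± 1.27 CPM at 0 h, 54.6 ± 2.55 at 3 h and 45.6 ± 2.18 at 6 h (SD, n = 3).

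Lysosomal membrane genes diverged. LAMP1 (ENSG00000185896), a major glycoprotein of the lysosomal membrane, stood at 62.1, 64.5 and 67 CPM at 0 h, 115, 106 and 112 CPM at 3 h, and 118, 112 and 113 CPM at 6 h. All 6 treated libraries lay above the 3 untreated ones, and the 3 h and 6 h libraries overlapped. LAMP1 rose by 0.79 (SE 0.052, edgeR adjusted p = 1.28e-08) at 3 h and 0.83 (SE 0.052, edgeR adjusted p = 5.6e-09) at 6 h, or 1.72-fold and 1.77-fold. LAMP2, its paralog with a role in chaperone-mediated autophagy, had 74.5 ± 3.52 CPM at 0 h, 74.4 ± 1.19 at 3 h and 69.1 ± 2.8 at 6 h (SD, n = 3) and passed in neither comparison against 0 h (adjusted p of 0.978 and 0.0763). It was called lower at 6 h without 0 h replicate 3 (-0.15, edgeR adjusted p = 0.00641), without 6 h replicate 11 (-0.14, 0.0482) and with a filter of 1 CPM in 3 libraries (-0.15, 0.0139). With upper-quartile factors and with library size alone LAMP2 was called lower at both times (-0.15 to -0.34). MCOLN1, the lysosomal calcium channel TRPML1, had 3.53 ± 0.371 CPM at 0 h and 3.65 ± 0.262 at 3 h, and fell to 2.55 ± 0.136 at 6 h, with -0.47 (SE 0.11, edgeR adjusted p = 0.00167) on the log2 scale. LAMP1 kept its direction under every scaling, and exons of MCOLN1 overlap those of PNPLA6 on the same strand.

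Cathepsins, the lysosomal proteases, moved little, and 3 of 6 passed at each time. Of all tested genes 66.3% passed at 3 h and 70.8% at 6 h. CTSZ, a carboxypeptidase, fell from 81.4 ± 6.48 CPM at 0 h to 57.4 ± 4.05 CPM at 6 h (SD, n = 3), by 0.39 (SE 0.066, edgeR adjusted p = 0.000145) at 3 h and 0.50 (SE 0.066, edgeR adjusted p = 1.08e-05) at 6 h. CTSA, the serine carboxypeptidase that also protects neuraminidase, had 15.3 ± 1.21 CPM at 0 h, 17.5 ± 1.45 at 3 h and 20.4 ± 0.728 at 6 h. Its log2 fold change was 0.19 (SE 0.076, edgeR adjusted p = 0.038) at 3 h and 0.41 (SE 0.076, edgeR adjusted p = 0.000258) at 6 h, and its 3 h libraries overlapped the untreated ones. CTSS, the protease that trims the invariant chain in antigen-presenting cells, had values of 0.17 (SE 0.051, edgeR adjusted p = 0.00876) at 3 h and 0.13 (SE 0.051, edgeR adjusted p = 0.0301) at 6 h, around 46.1 ± 1.94 CPM at 0 h. With library size alone the 3 h value of CTSA and both values of CTSS turned negative, as did the 6 h value of CTSS with upper-quartile factors, so the direction of these values turned with the scaling. Upper-quartile factors also ended the 3 h call of CTSS (0.02, edgeR adjusted p = 0.766). The CTSS call was lost at 3 h without 0 h replicate 2 (adjusted p = 0.0513) and at 6 h without 0 h replicate 1 or 2 or 6 h replicate 11 (0.108 to 0.126). It also ended at 6 h with a filter of 1 CPM in 3 libraries (0.101) and in a fit of only the groups compared (0.137). The 6 h call of CTSA ended with library size alone (0.17, adjusted p = 0.066), and its 3 h call with upper-quartile factors (0.04, 0.677), with a filter of 1 CPM in 3 libraries (0.15, 0.106) and in a fit of only the groups compared (0.19, 0.0656). The 3 h call of CTSA was also lost when 0 h replicate 1 or 2 or 3 h replicate 5 or 7 was left out (adjusted p of 0.0653 to 0.19). CTSB, CTSD and CTSH did not pass against 0 h, at 0.24, -0.05 and -0.07 at 3 h and -0.21, -0.18 and 0.21 at 6 h. CTSB was called higher at 3 h without 0 h replicate 3 (0.37, edgeR adjusted p = 0.00487) and lower at 6 h without 0 h replicate 1 (-0.31, 0.0396). CTSD was called lower at 6 h without 6 h replicate 9 (-0.25, edgeR adjusted p = 0.016) and with a filter of 1 CPM in 3 libraries (-0.22, 0.0256). With upper-quartile factors and with library size alone, CTSB was called lower at 6 h (-0.36 and -0.44) and CTSD at both times (-0.21 to -0.41).

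Among the 9 glycosidases, other hydrolases and saposins, 3 rose and 3 fell at each time, and the falls were the larger changes. The all-gene shares were 32.8% higher and 33.5% lower at 3 h, and 35.7% and 35% at 6 h. SGSH (ENSG00000181523), the sulfamidase of heparan sulfate breakdown, stood at 4.33, 4.71 and 4.41 CPM at 0 h, 1.48, 1.6 and 1.12 CPM at 3 h, and 1.64, 1.51 and 1.36 CPM at 6 h. Its untreated libraries lay far above all treated ones, and the 3 h and 6 h libraries overlapped. SGSH fell by 1.67 (SE 0.13, edgeR adjusted p = 4.78e-08) at 3 h and 1.57 (SE 0.13, edgeR adjusted p = 7.37e-08) at 6 h, or 3.19-fold and 2.98-fold. NAGLU (ENSG00000108784), which acts in the same breakdown pathway, stood at 55.3, 55.8 and 61.5 CPM at 0 h, 25.4, 24.3 and 25.2 CPM at 3 h, and 22.3, 21.6 and 21.4 CPM at 6 h. The 3 times did not overlap, with most of the drop present by 3 h. NAGLU fell by 1.2 (SE 0.055, edgeR adjusted p = 4.06e-10) at 3 h and 1.4 (SE 0.056, edgeR adjusted p = 7.59e-11) at 6 h. GAA (ENSG00000171298), the acid alpha-glucosidase that degrades glycogen in lysosomes, stood at 13.5, 14.7 and 14.1 CPM at 0 h, 10.8, 9.86 and 10.3 CPM at 3 h, and 4.85, 4.64 and 4.45 CPM at 6 h. Here most of the drop lay between 3 h and 6 h, and again no times overlapped. GAA fell by 0.45 (SE 0.068, edgeR adjusted p = 5e-05) at 3 h, by 1.6 (SE 0.074, edgeR adjusted p = 2.67e-10) at 6 h (3.03-fold), and by 1.15 (SE 0.075, edgeR adjusted p = 9.19e-08) between the treated times.

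NEU1, the lysosomal sialidase, rose from 13.8 ± 0.574 CPM at 0 h to 21.8 ± 0.816 CPM at 6 h, by 0.45 (SE 0.062, edgeR adjusted p = 1.89e-05) at 3 h and 0.65 (SE 0.062, edgeR adjusted p = 3.71e-07) at 6 h. GLA, alpha-galactosidase A, rose by 0.21 (SE 0.065, edgeR adjusted p = 0.00993) and 0.33 (SE 0.065, edgeR adjusted p = 0.000369), and its 3 h call was lost without 0 h replicate 2 (adjusted p = 0.0618). The GLA call also ended at 3 h with upper-quartile factors (0.06, adjusted p = 0.433), and at both times with library size alone (0.01, 0.889 at 3 h, and 0.10, 0.18 at 6 h). PSAP, the saposin precursor, passed at 3 h at 0.12 (SE 0.048, edgeR adjusted p = 0.0432), and GUSB, beta-glucuronidase, at 6 h at 0.13 (SE 0.048, edgeR adjusted p = 0.0293). Both small values turned negative with upper-quartile factors and with library size alone, which also put PSAP among the genes called lower at 6 h (-0.13 and -0.22). Library size alone put GUSB there too (-0.11, edgeR adjusted p = 0.0377). DESeq2 size factors ended the 3 h call of PSAP (0.11, edgeR adjusted p = 0.0521). The PSAP call was lost without any 1 of 4 libraries, which were 0 h replicates 1 and 2 and 3 h replicates 5 and 7 (adjusted p of 0.0625 to 0.143). The GUSB call was lost without 0 h replicate 1 or 2 or 6 h replicate 9 or 11 (0.0642 to 0.146), and GUSB has several named pseudogenes that could share its reads. Other filters on low counts also ended both calls, with adjusted p of 0.0548 and 0.152 for PSAP and of 0.0502 and 0.0971 for GUSB. GLB1 and HEXA, the beta-galactosidase and a beta-hexosaminidase subunit, lay between -0.07 and 0.10 and did not pass. With library size alone, HEXA and GUSB turned and were called lower at 3 h (-0.16, edgeR adjusted p = 0.0374, and -0.15, 0.00706), and GLB1 was called lower at both times (-0.26 and -0.31), as it was with upper-quartile factors (-0.21 and -0.22).

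The proton pump was the group with the most genes higher. The V0 sector is the membrane part of the V-ATPase through which protons pass. Of its 6 genes 5 rose at 3 h and 6 rose at 6 h, beside 32.8% and 35.7% of all tested genes. The median log2 fold change of the 6 was 0.43 and 0.62. Their summed level was 247 ± 4.46 CPM at 0 h, 335 ± 7.60 at 3 h and 381 ± 11.2 at 6 h (SD, n = 3). ATP6V0A1 was the exception at 3 h, at 0.01 (SE 0.059, edgeR adjusted p = 0.937), and turned to -0.15 with upper-quartile factors and -0.20 with library size alone. With library size alone 4 of the 6 rose and 1 fell at 3 h, and 5 rose and none fell at 6 h, when ATP6V0A1 was at 0.09.

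ATP6V0E1 (ENSG00000113732), a small membrane subunit, stood at 31, 32.2 and 34.4 CPM at 0 h, 57.6, 55.8 and 56.8 CPM at 3 h, and 55.2, 49.6 and 54.5 CPM at 6 h. Its treated libraries all exceeded the untreated ones, and the 6 h libraries lay just below those of 3 h. ATP6V0E1 rose by 0.80 (SE 0.057, edgeR adjusted p = 2.39e-08) at 3 h and 0.71 (SE 0.057, edgeR adjusted p = 6.95e-08) at 6 h. ATP6V0D1, a subunit that joins the sectors, rose from 19.8 ± 1.36 CPM at 0 h to 33.1 ± 1.78 CPM at 6 h, by 0.47 (SE 0.064, edgeR adjusted p = 1.9e-05) at 3 h and 0.75 (SE 0.064, edgeR adjusted p = 1.32e-07) at 6 h. ATP6V0A2, one form of the large membrane subunit, rose from 88.2 ± 6.91 CPM at 0 h to 138 ± 0.233 CPM at 6 h, by 0.41 and 0.65. ATP6V0C, which forms the proton-carrying ring, rose from 14.3 ± 1.17 CPM at 0 h to 21.6 ± 1.22 CPM at 6 h, by 0.44 and 0.60. ATP6V0B, a related ring subunit, rose from 80.2 ± 7.42 CPM at 0 h to 119 ± 5.95 CPM at 6 h, by 0.34 and 0.57, with its 3 h call lost under library size alone (0.14, adjusted p = 0.101). The edgeR adjusted p of these 3 lay between 1.34e-07 and 0.000732. ATP6V0A1 rose at 6 h by 0.33 (SE 0.059, edgeR adjusted p = 0.000183). ATP6V0A1, ATP6V0A2, ATP6V0B and ATP6V0D1 were also higher at 6 h than at 3 h, by 0.32, 0.24, 0.24 and 0.28.

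The V1 sector, the cytoplasmic part that hydrolyses ATP, was mixed. Of its 6 genes, 3 were higher and 2 lower at 3 h, and 4 higher and 1 lower at 6 h. Beside this, 32.8% of all tested genes were higher and 33.5% lower at 3 h, and 35.7% and 35% at 6 h. ATP6V1D (ENSG00000100554), a subunit of its central stalk, stood at 10.9, 11 and 10.9 CPM at 0 h, 24.3, 23.8 and 23.7 CPM at 3 h, and 23.5, 21.7 and 24 CPM at 6 h. Untreated and treated libraries were widely separated, and the treated times overlapped. ATP6V1D rose by 1.13 (SE 0.058, edgeR adjusted p = 1.13e-09) at 3 h and 1.08 (SE 0.059, edgeR adjusted p = 1.26e-09) at 6 h, or 2.19-fold and 2.11-fold, the largest increases among the 48. Its exons overlap those of EIF2S1 on the opposite strand, a gene at 126 CPM at 0 h that rose by 0.94 and 0.87. Since the strand setting of the counting is not given, reads of the 2 genes cannot be told apart in the overlap.

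ATP6V1B2 (ENSG00000147416), a subunit of the ATP-hydrolysing head, stood at 62.6, 62.6 and 59.9 CPM at 0 h, 116, 117 and 121 CPM at 3 h, and 102, 97.2 and 104 CPM at 6 h. It was highest at 3 h in all 3 libraries and did not overlap between any times. ATP6V1B2 rose by 0.93 (SE 0.048, edgeR adjusted p = 1.01e-09) at 3 h and 0.71 (SE 0.048, edgeR adjusted p = 1.05e-08) at 6 h, and fell between the treated times by 0.22 (SE 0.047, edgeR adjusted p = 0.00165). ATP6V1E1, a peripheral stalk subunit, rose from 45.4 ± 2.88 CPM at 0 h to 72.8 ± 3.21 CPM at 6 h, by 0.42 at 3 h and 0.68 at 6 h. ATP6V1H, a regulatory subunit, fell from 34.5 ± 0.407 CPM at 0 h to 26.8 ± 2.08 CPM at 6 h, by 0.27 and 0.36. ATP6V1A, the catalytic subunit, passed at 3 h at -0.21 (SE 0.066, edgeR adjusted p = 0.012), and not without 0 h replicate 2 or 3 h replicate 5 (adjusted p of 0.0502 and 0.0509). At 6 h it was at -0.14 (SE 0.066, edgeR adjusted p = 0.0805), but was called lower without 0 h replicate 3 (-0.22, 0.00115), with a filter of 1 CPM in 3 libraries (-0.18, 0.0256), with upper-quartile factors (-0.28, 0.00111) and with library size alone (-0.37, 0.000184). ATP6V1C1 passed at 6 h at 0.17 (SE 0.056, edgeR adjusted p = 0.0161) but not without 6 h replicate 11 (0.0536), in a fit of only the groups compared (0.0765) or with upper-quartile factors (0.02, 0.731). With library size alone ATP6V1C1 was called lower at 3 h (-0.14, edgeR adjusted p = 0.0281) and was at -0.07 at 6 h.

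**Figure D3:**
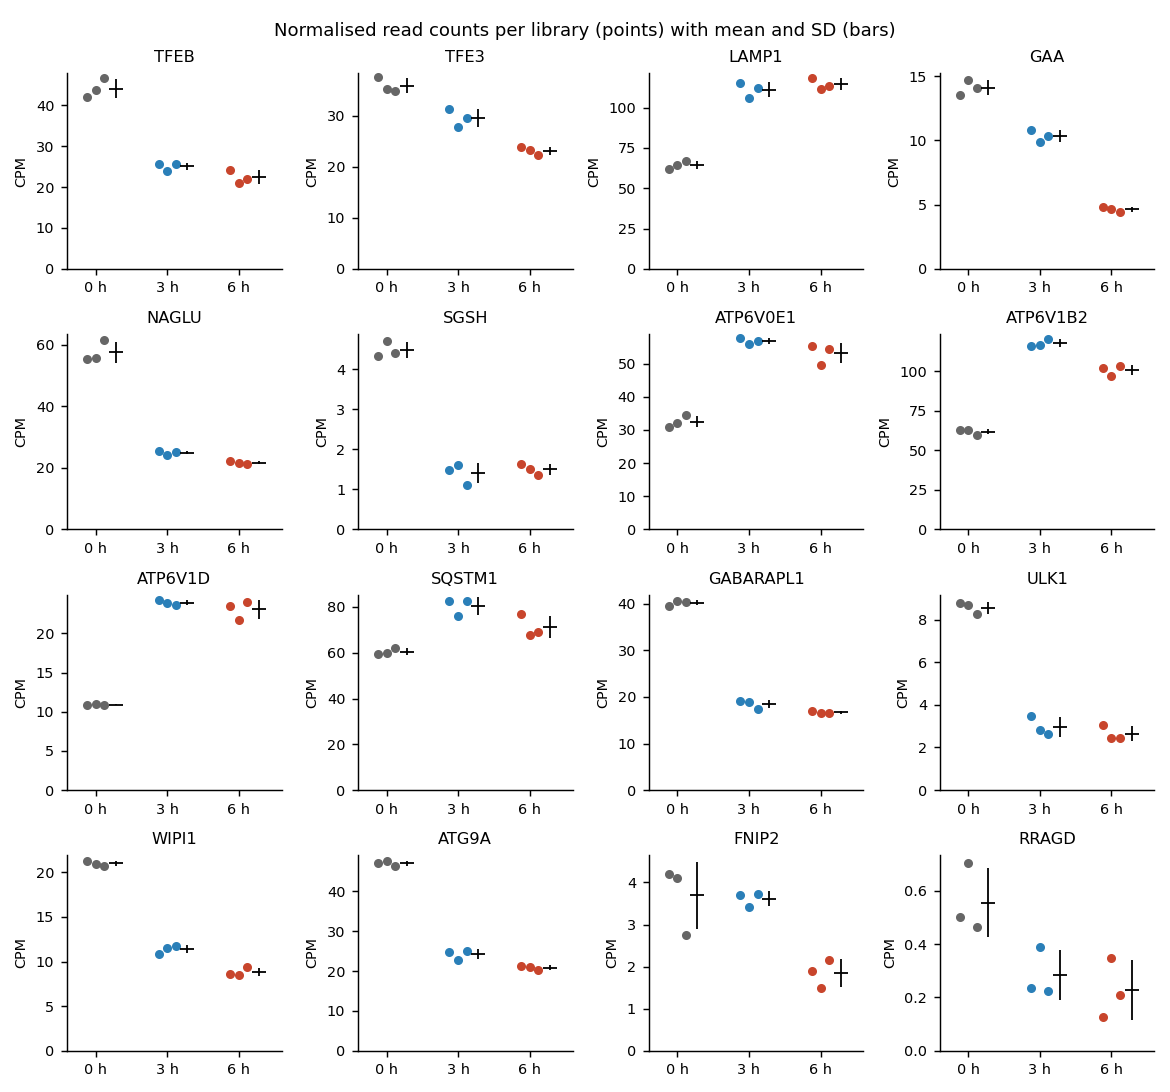
CPM (y axis, from 0) in each library at 0 h, 3 h and 6 h for 16 genes given library by library in the text. Points are libraries and bars the mean and SD of 3. LAMP1, ATP6V0E1, ATP6V1B2 and ATP6V1D step up at 3 h, and NAGLU, SGSH, GABARAPL1, ULK1, WIPI1 and ATG9A step down, with GAA and FNIP2 lowest at 6 h.

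Of the 5 genes for the cargo receptor p62 and the ATG8 proteins, 1 rose and 2 fell at 3 h. At 6 h, 1 rose and 4 fell. The shares of all tested genes were 32.8% higher and 33.5% lower at 3 h, and 35.7% and 35% at 6 h. SQSTM1 (ENSG00000161011) encodes p62, the receptor that links ubiquitinated cargo to the autophagosome, and stood at 59.3, 59.9 and 62.1 CPM at 0 h, 82.5, 76 and 82.6 CPM at 3 h, and 76.8, 67.6 and 69.2 CPM at 6 h. Each treated library lay above each untreated one, and the 3 h and 6 h groups overlapped by 1 library. SQSTM1 rose by 0.41 (SE 0.058, edgeR adjusted p = 2.33e-05) at 3 h and 0.24 (SE 0.058, edgeR adjusted p = 0.00226) at 6 h. The 6 h call was lost with upper-quartile factors (0.09, adjusted p = 0.165) and with library size alone (0.00, adjusted p = 0.998). GABARAPL1 (ENSG00000139112), an ATG8 protein that is conjugated to autophagosome membranes, stood at 39.6, 40.7 and 40.3 CPM at 0 h, 19, 18.9 and 17.5 CPM at 3 h, and 17.1, 16.4 and 16.5 CPM at 6 h. No times overlapped, and nearly all of the drop was present at 3 h. GABARAPL1 fell by 1.12 (SE 0.053, edgeR adjusted p = 5e-10) at 3 h and 1.27 (SE 0.054, edgeR adjusted p = 1.28e-10) at 6 h.

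MAP1LC3B, which encodes LC3B, the ATG8 protein used as the standard autophagosome marker, had 60.3 ± 2.33 CPM at 0 h, 56.9 ± 1.99 at 3 h and 36.5 ± 1.84 at 6 h (SD, n = 3). It did not pass at 3 h, at -0.08 (SE 0.054, edgeR adjusted p = 0.189), and fell at 6 h by 0.72 (SE 0.055, edgeR adjusted p = 3.72e-08), with -0.64 (SE 0.055, edgeR adjusted p = 1.05e-06) between the treated times. MAP1LC3B was called lower at 3 h with upper-quartile factors (-0.24, edgeR adjusted p = 0.00136), with library size alone (-0.29, 0.000224) and with a filter of 1 CPM in 3 libraries (-0.13, 0.0389). GABARAP was called lower at both times, at -0.21 (SE 0.088, edgeR adjusted p = 0.0497) and -0.24 (SE 0.089, edgeR adjusted p = 0.0246). GABARAPL2 was called lower at 6 h at -0.14 (SE 0.058, edgeR adjusted p = 0.0374). Neither of those calls held throughout: GABARAP was lost at both times without 0 h replicate 3 (0.115 and 0.0554) or 6 h replicate 10 (0.0675 and 0.107) and at 3 h without 0 h replicate 2, 3 h replicate 6 or 6 h replicate 9 or 11 (0.0584 to 0.237). GABARAPL2 was lost without 0 h replicate 3, 3 h replicate 7 or 6 h replicate 10 or 11 (0.0582 to 0.157), and was called lower at 3 h too with upper-quartile factors and with library size alone (-0.19 and -0.24). Summed over the receptor and the 4 ATG8 genes, levels were 236 ± 8.88 CPM at 0 h, 227 ± 8.39 at 3 h and 191 ± 9.54 at 6 h.

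Of 7 genes that start autophagosome formation, 2 rose and 4 fell at 3 h, and 2 rose and 5 fell at 6 h. Among all tested genes 32.8% rose and 33.5% fell at 3 h, and 35.7% rose and 35% fell at 6 h. ULK1 (ENSG00000177169), the kinase that initiates autophagy, stood at 8.78, 8.66 and 8.25 CPM at 0 h, 3.47, 2.8 and 2.61 CPM at 3 h, and 3.04, 2.43 and 2.44 CPM at 6 h. All treated libraries lay far below the untreated ones, and the treated times overlapped. ULK1 fell by 1.53 (SE 0.11, edgeR adjusted p = 2.92e-08) at 3 h and 1.7 (SE 0.11, edgeR adjusted p = 1.05e-08) at 6 h, 2.9-fold and 3.24-fold, the lowest log2 value of the 48 at 6 h. ATG9A (ENSG00000198925), the membrane scramblase of the early autophagosome, stood at 47.2, 47.6 and 46.3 CPM at 0 h, 24.8, 22.9 and 25.1 CPM at 3 h, and 21.4, 21 and 20.3 CPM at 6 h. No times overlapped. ATG9A fell by 0.96 (SE 0.052, edgeR adjusted p = 1.94e-09) and 1.17 (SE 0.053, edgeR adjusted p = 2.34e-10). WIPI1 (ENSG00000070540), a reader of the phosphoinositide made at the growing membrane, stood at 21.3, 21 and 20.7 CPM at 0 h, 10.9, 11.6 and 11.7 CPM at 3 h, and 8.61, 8.49 and 9.36 CPM at 6 h. Its libraries stepped down at each time. WIPI1 fell by 0.88 (SE 0.062, edgeR adjusted p = 2.35e-08) and 1.25 (SE 0.064, edgeR adjusted p = 7.12e-10), and its exons overlap ARSG on the opposite strand, a gene at 9.74 CPM at 0 h that fell by 0.43 and 0.81.

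WIPI2, which recruits the ATG16L1 conjugation machinery, fell from 62 ± 1.15 CPM at 0 h to 43.2 ± 3.09 CPM at 6 h, by 0.29 at 3 h and 0.52 at 6 h. Genes of the Beclin 1 complexes went otherwise. BECN1, their scaffold, had 54.6 ± 1.12 CPM at 0 h, 68.5 ± 1.05 at 3 h and 63.2 ± 2.95 at 6 h and rose by 0.33 (SE 0.049, edgeR adjusted p = 4.52e-05) and 0.21 (SE 0.049, edgeR adjusted p = 0.00164), with the 6 h call lost under upper-quartile factors (0.06, adjusted p = 0.218) and library size alone (-0.03, 0.604). ATG14, the subunit of the autophagy-specific complex, rose from 4.74 ± 0.19 CPM at 0 h to 7 ± 0.341 CPM at 6 h, by 0.44 (SE 0.077, edgeR adjusted p = 0.000165) and 0.56 (SE 0.077, edgeR adjusted p = 1.54e-05). UVRAG, the subunit of the endosomal complex, had 83 ± 5.41 CPM at 0 h, 88.6 ± 1.14 at 3 h and 63.6 ± 1.17 at 6 h and passed only at 6 h, when it fell by 0.39 (SE 0.053, edgeR adjusted p = 1.72e-05).

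The folliculin complex, an activator of RagC and RagD, showed a different course for each gene. FLCN, folliculin, rose from 4.35 ± 0.39 CPM at 0 h to 7.2 ± 0.361 CPM at 6 h, by 0.67 (SE 0.086, edgeR adjusted p = 1.01e-05) at 3 h and 0.73 (SE 0.087, edgeR adjusted p = 3.97e-06) at 6 h. FNIP1, its partner, had 17 ± 2.56 CPM at 0 h, 22.4 ± 0.172 at 3 h and 16.3 ± 0.986 at 6 h. It rose by 0.39 (SE 0.091, edgeR adjusted p = 0.00183) at 3 h and had -0.07 (SE 0.093, edgeR adjusted p = 0.527) at 6 h, and it fell between the treated times by 0.46 (SE 0.092, edgeR adjusted p = 0.00128). At 6 h FNIP1 was called lower without 0 h replicate 3 (-0.19, edgeR adjusted p = 0.0127) and with library size alone (-0.30, 0.0133), which also ended its 3 h call (0.19, 0.0916). FNIP2 (ENSG00000052795), the paralog of FNIP1, stood at 4.2, 4.11 and 2.76 CPM at 0 h, 3.71, 3.4 and 3.74 CPM at 3 h, and 1.89, 1.49 and 2.15 CPM at 6 h. The 3 h libraries lay among the untreated ones, of which replicate 3 was the lowest, and the 6 h libraries lay below all others. FNIP2 had -0.03 (SE 0.15, edgeR adjusted p = 0.861) at 3 h and fell by 1.01 (SE 0.17, edgeR adjusted p = 0.00012) at 6 h, or by 1.18 without 0 h replicate 3. RRAGD (ENSG00000025039), the GTPase RagD, stood at 0.501, 0.705 and 0.463 CPM at 0 h, 0.236, 0.391 and 0.225 CPM at 3 h, and 0.128, 0.35 and 0.207 CPM at 6 h. It was low throughout, with the treated libraries below the untreated ones and overlapping with each other. RRAGD fell by 0.96 (SE 0.33, edgeR adjusted p = 0.0188) at 3 h and 1.28 (SE 0.35, edgeR adjusted p = 0.00461) at 6 h, and the 3 h call was lost without 0 h replicate 2, 3 h replicate 5 or 3 h replicate 7 (adjusted p of 0.0889, 0.0733 and 0.0765).

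Between 3 h and 6 h, 7 of the 48 genes rose, 15 fell and 26 did not pass, which is 45.8% called beside 43.4% of all genes (21.5% higher and 21.9% lower). The median was -0.10, beside 0.01 for all genes. No gene rose by at least 1.5-fold with edgeR, DESeq2 or limma-voom, and GAA, FNIP2 and MAP1LC3B fell by as much (6.25% of the 48 in either direction, beside 10.9% of all genes, 4.87% higher and 6.01% lower). Of the 7 that rose, ATP6V0A1, ATP6V0A2, ATP6V0B, ATP6V0D1 and ATP6V1E1 belong to the proton pump, beside CTSA and NEU1. The number that rose was 4 without 3 h replicate 6 and 4 without 6 h replicate 9. Against 0 h, 17 genes were higher at both times and 14 lower at both, and the 2 comparisons share their controls. No share of all tested genes is given here for these 2 counts, so they only describe the 48 genes. PSAP and FNIP1 were higher and ATP6V1A lower at 3 h and did not pass at 6 h. ATP6V0A1, GUSB and ATP6V1C1 were higher and MCOLN1, MAP1LC3B, UVRAG, FNIP2 and GABARAPL2 lower at 6 h and did not pass at 3 h. A test for any difference among the 3 times passed for 40 of 48 genes, beside 77.7% of all genes.

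The libraries of a time did not overlap those of 0 h for 34 of the 48 genes at 3 h (70.8%, beside 70.2% of all genes) and for 41 at 6 h (85.4%, beside 71.7%). Between 3 h and 6 h this held for 30 (62.5%, beside 55.2%). Leaving out 0 h replicate 3 gave 20 higher and 14 lower at 3 h, 20 and 20 at 6 h, and 9 and 19 between the treated times. Calls over all genes also went up with this library left out, from 10505 to 10761 at 3 h, from 11213 to 11578 at 6 h and from 6871 to 8103 between the treated times.

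Set beside the promoter windows, the 10 genes with CACGTG had a median log2 fold change of 0.36 at 3 h and 0.49 at 6 h. Of these, 7 rose and 1 fell at 3 h, and 6 rose and 2 fell at 6 h. The 24 tested genes with a window but without CACGTG had medians of -0.05 and -0.11, with 8 higher and 9 lower at 3 h and 10 and 12 at 6 h. No test was made of this difference. The 5 genes with TCACGTGA went in both directions: LAMP1, ATP6V0D1 and CTSA rose, while GAA fell at both times and MCOLN1 at 6 h. GAA and MCOLN1 were also the 2 genes that held this form with a G before it and a C after it. Both were thus lower at 6 h, unlike the median of the 10 genes with CACGTG, and this was not tested.

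Levels between genes were compared per kilobase of exon, on the CPM scale at 0 h. The highest was PSAP at 63.4 ± 1.32 CPM per kilobase (SD, n = 3), followed by CTSZ at 54.4 ± 4.34, GABARAPL2 at 42.9 ± 2.82, ATP6V0B at 35.1 ± 3.24 and ATP6V1E1 at 32.4 ± 2.06. The means of ATP6V0B and ATP6V1E1 lay within 3 CPM per kilobase of each other. The lowest detected were RRAGD at 0.114 ± 0.0265, CTSH at 0.212 ± 0.0138, FNIP2 at 0.533 ± 0.117, CTSB at 0.944 ± 0.162 and ATG14 at 1 ± 0.0401. CTSB and CTSD, at 6.62 ± 0.494, were thus far below CTSZ in this B cell line.

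**Figure D4:**
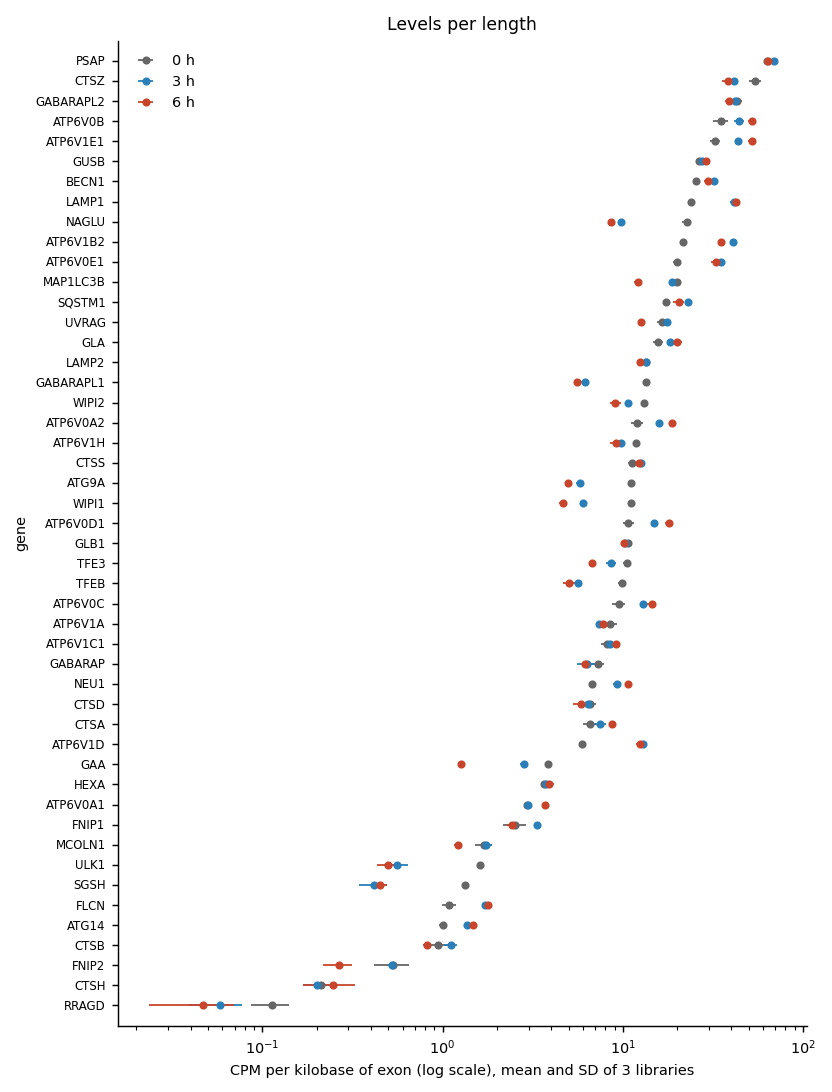
Mean level per kilobase of exon (x axis, log scale, CPM per kilobase) of the 48 tested genes, in order of their level at 0 h, with the SD of 3 libraries. Colours mark 0 h, 3 h and 6 h. PSAP is the highest and RRAGD the lowest.

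Other genes of the same pathways also went both ways. Of all tested genes, 32.8% were higher and 33.5% lower at 3 h, and 35.7% and 35% at 6 h. In the lists of this paragraph and the next, 67.5% to 85.3% passed at 3 h, beside 66.3% of all genes. At 6 h 66.7% to 92.3% passed, beside 70.8%. Of 40 tested genes for other lysosomal enzymes and membrane proteins, 13 rose and 14 fell at 3 h and 14 rose and 18 fell at 6 h. CTSC, a dipeptidyl peptidase, rose from 78.8 ± 3.05 CPM at 0 h to 176 ± 4.44 CPM at 6 h and M6PR, a mannose 6-phosphate receptor, from 83.3 ± 3.31 CPM at 0 h to 146 ± 4.9 CPM at 6 h, log2 fold changes of 1.16 and 0.81. SORT1, a sorting receptor, fell by 1.44 and MANBA, beta-mannosidase, by 1.03 at 6 h. Of 13 other V-ATPase genes, 5 rose and 5 fell at 3 h and 6 rose and 6 fell at 6 h. ATP6V1C2 rose from 4.31 ± 0.511 CPM at 0 h to 15.7 ± 0.363 CPM at 6 h, a log2 fold change of 1.87, and ATP6AP2 by 0.59, while ATP6V1E2 and ATP6V1G2 fell by 1.23 and 1.12. Of 32 other autophagy genes, 15 rose and 8 fell at 3 h and 15 rose and 7 fell at 6 h. VMP1 and ATG5 rose at 6 h by 0.68 and 0.55, and ATG4C and ATG10 fell by 0.94 and 0.98. Of 12 selective autophagy receptors, 4 rose and 6 fell at 6 h. CALCOCO2, the receptor NDP52, fell from 92.7 ± 1.85 CPM at 0 h to 30.3 ± 0.866 CPM at 6 h and BNIP3L, a mitophagy receptor, from 51.8 ± 3.62 CPM at 0 h to 16.3 ± 1.18 CPM at 6 h, by 1.61 and 1.67, beside rises of 0.45 for BNIP3 and 0.37 for SEC62.

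Of 34 genes of the mTORC1 and Rag branch that acts on TFEB, 13 rose and 16 fell at 3 h and 14 rose and 11 fell at 6 h. Their log2 fold changes at 6 h ranged from -3.84 to 1.14, and the genes named were not those with the largest falls. SEC13 and SEH1L, subunits of the GATOR2 complex, rose by 1.14 and 1.08 at 6 h. SESN2, a leucine sensor that restrains mTORC1, fell from 239 ± 0.753 CPM at 0 h to 80.8 ± 4.18 CPM at 6 h, by 1.56, and DEPTOR, an mTOR inhibitor, by 0.60. Of 24 other regulators of TFEB location and stability, 13 rose and 7 fell at 3 h and 8 rose and 8 fell at 6 h. The 14-3-3 genes YWHAE and YWHAG rose by 0.66 and 0.69, and PRKCD, a protein kinase C, and PPP3CA, a calcineurin catalytic subunit, fell by 0.76 and 0.60. Over this paragraph and the one before, 24 genes were named from these lists, chosen for the smallest p at 6 h. Their edgeR adjusted p at 6 h lay between 7.27e-12 and 1.17e-05, while 8 of the 24 regulators of TFEB did not pass.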

How the data were processed

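RNA was sequenced from 9 libraries of Ramos cells, 3 per group as the labels give them. The table deposited by the authors holds raw counts of reads for each Ensembl gene. The submitters' processing notes name GSNAP, HTSeq 0.6.0, limma 3.30.0 and build hg19. The annotation release, strand setting and counting mode are not given in the sources used here. The 5 summary rows held 29.1% to 32.4% of reads and were set aside.

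The main test was the quasi-likelihood test of edgeR 4.0.16 (R 4.3.3), robust, on all 9 libraries with 1 mean for each time and 6 residual degrees of freedom. filterByExpr removed low genes at a minimum count of 10 and a minimum total of 15, and TMM gave the scaling factors. The 3 comparisons were two-sided, with Benjamini-Hochberg adjustment over the 15847 genes tested and a threshold of 0.05. A second call rule added a change of at least 1.5-fold. SEs were derived from the log2 fold change and its F statistic. Overlap between libraries was judged on CPM.

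Symbols came from a separate list of gene names, matched by gene identifier. Overlaps and exon lengths came from GENCODE 29 (GRCh38) by gene identifier, and promoter windows from RefSeq (GRCh38.p14). The members and lists were chosen with earlier results of these data known. All 49 genes were named. Given library by library were up to 14 called genes with the largest absolute log2 fold change against 0 h, beside TFEB, TFE3, MITF, SQSTM1 and LAMP1. Of each other pathway list, up to 2 genes per direction with the smallest p at 6 h were named. As alternatives, DESeq2 1.42.0 and limma-voom (limma 3.58.1) replaced edgeR, and 3 other scalings, 2 other filters, fits on only the groups compared, a minimum fold of 1.2 and the omission of each library were tried. Plots were made in Python 3.11.15 with matplotlib 3.10.9.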

Additional observations from a re-analysis of the deposited data

Results flagged for a closer look

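The effect against 0 h differed between 3 h and 6 h for 22 of the 48 genes (45.8%, beside 43.4% of all tested genes). This was judged by edgeR's test of 6 h against 3 h (adjusted p under 0.05). It is the test of that difference because both effects share the 0 h libraries. All values here are log2 fold changes of 6 h against 3 h. The proton pump genes ATP6V0A1 (0.32), ATP6V0D1 (0.28), ATP6V1E1 (0.26), ATP6V0A2 (0.24) and ATP6V0B (0.24) were higher at 6 h, as were CTSA (0.22) and NEU1 (0.20), whereas ATP6V1B2 was lower (-0.22). Hydrolases with a lower value were GAA (-1.15), CTSB (-0.44) and NAGLU (-0.20). In the folliculin complex FNIP2 (-0.97) and FNIP1 (-0.46) were lower. Among autophagy genes MAP1LC3B (-0.64), UVRAG (-0.48), WIPI1 (-0.37), WIPI2 (-0.23), ATG9A (-0.21), SQSTM1 (-0.17) and GABARAPL1 (-0.15) were lower, as were the channel gene MCOLN1 (-0.52) and the transcription factor gene TFE3 (-0.35). Against 0 h, the fitted values of MCOLN1, CTSB, UVRAG and FNIP1 had opposite signs at 3 h and 6 h.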

How the results depend on the processing

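Over 18 alternatives the 48 genes gave 2586 alternative values. With the sign unchanged, 122 no longer passed and 50 newly passed. Counted apart from these, 17 turned sign with a pass on either side, and 39 turned sign without one. Calls held under every alternative that tested the gene for 21 of 34 genes at 3 h and 29 of 39 at 6 h. Between the treated times 6 of 22 held. RRAGD, counted as held at 6 h, was not tested with the filter of 1 CPM in 3 libraries. With upper-quartile factors, values turned to -0.0356 for PSAP and -0.15 for ATP6V0A1 at 3 h, and to -0.0131 for CTSS, -0.0217 for GUSB and -0.13 for PSAP at 6 h. With library size alone they turned at 3 h to -0.0096 for CTSA, -0.0308 for CTSS, -0.16 for HEXA, -0.15 for GUSB, -0.0848 for PSAP, -0.20 for ATP6V0A1 and -0.14 for ATP6V1C1, and at 6 h to -0.10 for CTSS, -0.11 for GUSB, -0.22 for PSAP, -0.069 for ATP6V1C1 and -0.0257 for BECN1. The genes at least 1.5-fold higher numbered 3 with upper-quartile factors and 2 with library size alone at 6 h (from 10), and 3 with library size alone at 3 h (from 5). With library size alone 24 genes were lower at 3 h (from 15) and 12 higher at 6 h (from 20). These shifts follow from the scaling, which moves all genes together. A minimum fold of 1.2, a stricter test by construction, left 12 higher at 3 h (from 19), 13 higher at 6 h (from 20), and 0 higher (from 7) and 6 lower (from 15) between the treated times, where 2504 of all genes passed (from 6871). Leaving out 1 library gave 15 to 20 higher and 12 to 15 lower at 3 h, 17 to 20 and 17 to 20 at 6 h, and 4 to 9 and 13 to 19 between the treated times. Between the treated times, calls of ATP6V0B, CTSA, GABARAPL1, NEU1 and SQSTM1 were also lost under alternatives other than the minimum fold. No paired analysis was possible because the groups share no replicate numbers (1 to 3, 5 to 7 and 9 to 11). Depth limits RRAGD and CTSH, both under 1 CPM, and 22 genes overlap another gene's exons or have named pseudogenes.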
